A study of Mus musculus with 12 samples.

Results

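*Parp9*, *Dtx3l*, *Parp14*, *Parp12*, *Parp10*, *Parp11*, *Parp3*, *Parp8*, *Parp1* and *Parp2* were followed as one gene set in mouse colon adenocarcinoma cells exposed to inflammatory cytokines. The set was chosen by symbol, with earlier results of these data known. It holds genes of the poly(ADP-ribose) polymerase (PARP) family and the gene of the PARP9 partner DTX3L, with *Parp1* and *Parp2* as constitutively expressed members for comparison. All 10 genes had a row in the count table, which names 43269 genes, and all 10 passed the filter on low counts.

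The cells were MC38CEA, a mouse line that carries human carcinoembryonic antigen. *Adam17*-KD cells had been edited by CRISPR/Cas9 with guide RNAs against *Adam17*, the gene of a metalloproteinase that sheds cell surface proteins, and control cells had been edited with a guide RNA against EGFP. Cells of both kinds were either stimulated for 6 h with IL1β plus IFNγ (10 ng/ml of either) or left unstimulated. The 4 groups had 3 libraries each, labelled as biological replicates, from poly(A)+ RNA. Whether replicates come from separate editing experiments or from repeated cultures of one edited population is not stated, so the p-values cover the spread between these libraries, which may be technical. The study describes *Adam17* editing in a whole population and in clones, and the labels do not say which gave these libraries. Both cytokines were given together, and their contributions cannot be told apart.

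PARP enzymes transfer ADP-ribose from NAD+ onto proteins. PARP1 and PARP2 build poly(ADP-ribose) chains at DNA breaks, where they help to recruit repair proteins, while most other members attach single ADP-ribose units. Several of the mono-ADP-ribosyl transferases are induced by interferons and take part in antiviral defence. PARP9 binds DTX3L, a ubiquitin ligase of the Deltex family, and in human cells their genes lie head to head and share a promoter that responds to IFNγ.

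Total counts were between 13156871 and 25443307 per library. Levels are given as CPM, each count relative to the scaled total of its library. Without cytokines the *Adam17* level was 52.2 ± 4.39 CPM in *Adam17*-KD and 87.7 ± 9.41 CPM in control cells (SD, n = 3 each). With cytokines it stood at 59.8 ± 2.63 CPM in *Adam17*-KD cells and 105 ± 9.76 CPM in control cells (SD, n = 3 each), and the groups did not overlap in either condition. Of 14 colon epithelial markers, 13, *Epcam*, *Cdh1*, *Krt8* and *Krt18* among them, were under 1 CPM in every library, and the list summed to between 0.313 and 3.86 CPM. The labelled epithelial identity was therefore not visible in these markers. Leukocyte markers (11 in the table) summed to between 3.30 and 7.47 CPM. Replicate 2 of stimulated control cells stood apart from the other libraries on the second principal component, which held 17.0% of the variance (-47.5, against 27.0 and 30.9 in the other stimulated control libraries). Calls that changed without it are given with and without it.

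Cytokines raised 8 of the 10 genes in *Adam17*-KD cells and the same 8 in control cells, and neither *Parp1* nor *Parp2* was called in either. The threshold for a call was an adjusted p of 0.05 in edgeR's quasi-likelihood test with Benjamini-Hochberg adjustment over 14673 genes. Of all genes tested, 6.37% were called higher with cytokines in *Adam17*-KD cells and 5.75% in control cells. The median log2 fold change of the 10 genes was 2.08 in *Adam17*-KD cells, against 0.001 over all genes tested, and 2.42 in control cells, against -0.03 over all genes. Since the members were chosen with earlier results of these data known, this contrast with all genes is a description and not a test. The responses of both kinds of cells rest on separate libraries within one fit. The summed epithelial markers were higher with cytokines, mainly through *Muc1*, the one gene of the list that was tested. The epithelial list summed to between 2.21 and 3.86 CPM in stimulated and 0.746 and 1.31 CPM in unstimulated *Adam17*-KD libraries, and to between 1.67 and 2.20 CPM in stimulated and 0.313 and 0.835 CPM in unstimulated control libraries. Of all genes tested, 1.53% were called lower with cytokines in *Adam17*-KD cells and 1.06% in control cells. Of 6 tested markers of fibroblasts and endothelium, 1 was called higher (*Dcn*) and 3 lower (*Col1a2*, *Pdgfra* and *Pdgfrb*) in *Adam17*-KD cells. In control cells 2 were called lower (*Col1a2* and *Pdgfra*). The part of the epithelial, fibroblast and endothelial markers in the responses was not tested.

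**Figure D1:**
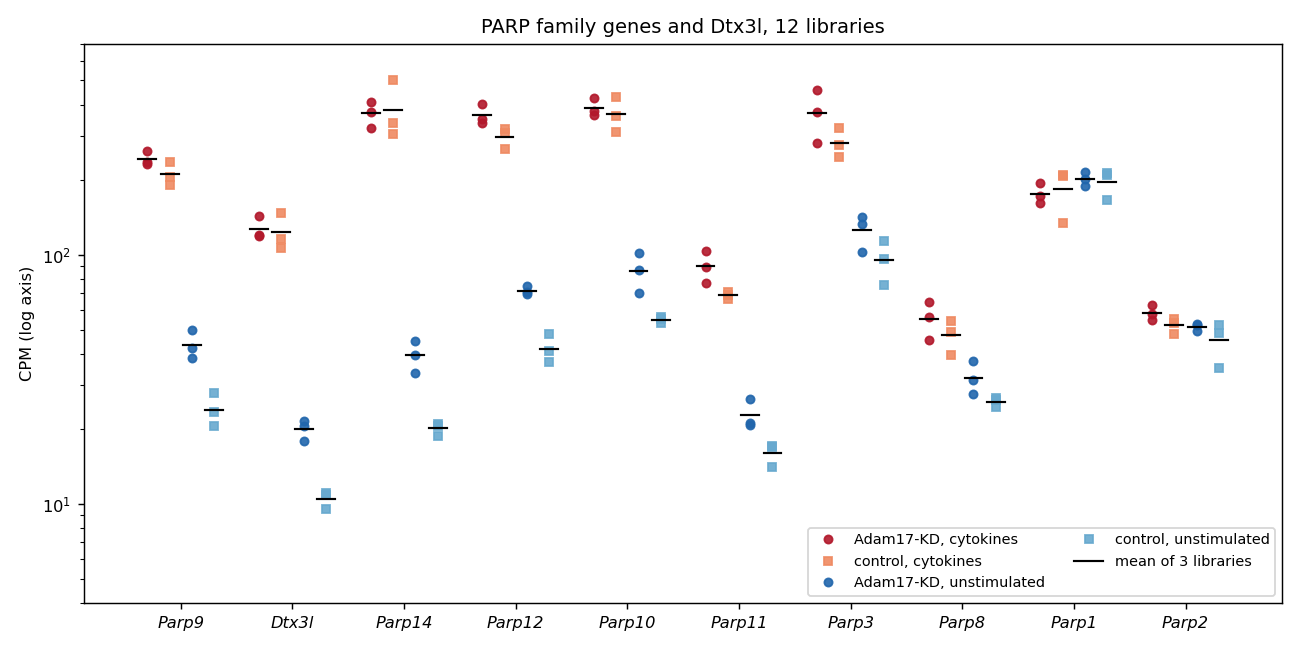
CPM (log axis) of the 10 genes in the 12 libraries; points are libraries, and bars are means of 3. *Parp14* sits between 305 and 503 CPM in the stimulated libraries and between 18.7 and 45.1 CPM in the unstimulated ones, whereas the points of *Parp1* overlap across all groups.

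*Parp14* encodes a large mono-ADP-ribosyl transferase with macrodomains that bind ADP-ribose. It stood at 323, 373 and 411 CPM in stimulated and at 39.7, 45.1 and 33.4 CPM in unstimulated *Adam17*-KD libraries (replicates 1, 2 and 3). In control cells the values were 305, 503 and 336 CPM with cytokines and at 21.0, 18.7 and 20.5 CPM without. The stimulated libraries lay far above every unstimulated one, and the highest value came from stimulated control replicate 2. The log2 fold change was 3.23 ± 0.19 (SE) in *Adam17*-KD cells (adjusted p = 5.78e-08, 9.36-fold) and 4.25 ± 0.20 in control cells (adjusted p = 4.72e-09, 19.0-fold), the largest response of the 10 genes in both. Without stimulated control replicate 2 the response of control cells was 4.01.

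*Dtx3l* and *Parp9*, the partner genes, followed in size. *Dtx3l* stood at 119.5, 119 and 143 CPM in stimulated and at 20.5, 21.6 and 17.8 CPM in unstimulated *Adam17*-KD libraries. Control libraries had 106, 147 and 116 CPM with cytokines and at 9.56, 10.8 and 11.1 CPM without. The rise was 2.67 ± 0.15 on the log2 scale in *Adam17*-KD cells (6.36-fold) and 3.55 ± 0.16 in control cells (11.7-fold), with no overlap between stimulated and unstimulated libraries. *Parp9* encodes a macrodomain protein that acts with DTX3L. It stood at 229.9, 235 and 261 CPM in stimulated and at 42.3, 49.9 and 38.4 CPM in unstimulated *Adam17*-KD libraries. In control libraries the values were 189, 205 and 235 CPM with cytokines and 23.3, 20.5 and 27.8 CPM without. For *Parp9* the log2 fold change was 2.48 ± 0.15 in *Adam17*-KD cells and 3.13 ± 0.15 in control cells (5.56-fold and 8.78-fold). All stimulated libraries again exceeded all unstimulated ones.

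These genes form a cluster on chromosome 16 (coordinates and overlaps from GENCODE M21, GRCm38, the assembly of the mm10 build named in the labels). *Parp14* lies at 35832874 to 35871544 and *Dtx3l* at 35926511 to 35939151, both on the minus strand, and *Parp9* lies at 35938470 to 35972605 on the plus strand. The whole cluster spans 139732 bases, with 54966 bases between *Parp14* and *Dtx3l*. *Dtx3l* and *Parp9* overlap head to head by 682 bases, of which 458 are exonic in both, 8% of the exon bases of *Dtx3l* and 9.40% of those of *Parp9*. The sources used here do not say whether counting used strand, so reads from those bases may have been given to either gene. Of the 6 nearest protein-coding neighbours on the 2 sides, 5 were tested (*Hspbap1*, *Dirc2*, *Kpna1*, *Wdr5b* and *Fam162a*), and none was called. Their log2 responses were between -0.34 and 0.30 in *Adam17*-KD cells and between -0.29 and 0.32 in control cells. Among these tested genes the large responses were thus those of the 3 cluster genes. Non-coding genes of the stretch were not looked at.

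**Figure D2:**
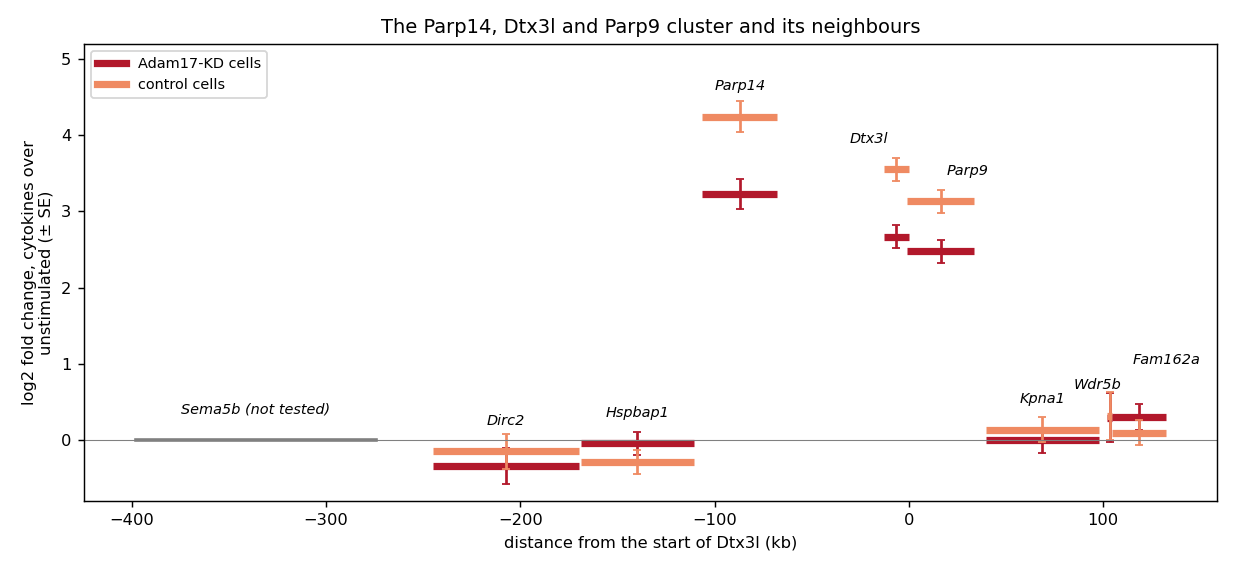
Log2 fold change with cytokines (± SE) against distance from the start of *Dtx3l* in kb; each bar spans a gene, dark red for *Adam17*-KD and orange for control cells, and the grey bar only marks the position of *Sema5b*, which was not tested. *Parp14*, *Dtx3l* and *Parp9* lie between 2.48 and 4.25, and the 5 tested neighbours between -0.34 and 0.32.

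*Parp12* and *Parp10* encode mono-ADP-ribosyl transferases, the first with zinc fingers of the kind that bind RNA. *Parp12* stood at 403, 336 and 351 CPM in stimulated and at 74.6, 71.0 and 69.5 CPM in unstimulated *Adam17*-KD libraries. Control libraries had 307, 265 and 319.9 CPM with cytokines and at 40.9, 36.9 and 48.1 CPM without. Its log2 fold change was 2.34 ± 0.13 in *Adam17*-KD cells and 2.82 ± 0.13 in control cells. *Parp10* stood at 364, 425 and 377 CPM in stimulated and at 86.7, 101 and 70.4 CPM in unstimulated *Adam17*-KD libraries. Control libraries had 361, 430.1 and 309 CPM with cytokines and at 55.2, 55.9 and 53.3 CPM without. For *Parp10* the log2 fold change was 2.17 ± 0.15 in *Adam17*-KD cells and 2.74 ± 0.16 in control cells, where it differed from that of *Parp12* by less than 1 SE. *Parp10* (chromosome 15) shares 205 exon bases with *Plec* on the same strand, 4.80% of its exon bases. *Plec* was not called in any comparison (-0.50 in *Adam17*-KD cells and -0.60 in control cells with cytokines).

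*Parp11*, another mono-ADP-ribosyl transferase gene, had a smaller response. It stood at 77.0, 89.5 and 103 CPM in stimulated and at 21.1, 26.3 and 20.7 CPM in unstimulated *Adam17*-KD libraries. Control libraries had 66.2, 68.7 and 70.8 CPM with cytokines and at 17.0, 14.02 and 17.1 CPM without. This was a log2 fold change of 1.98 ± 0.14 in *Adam17*-KD cells (3.95-fold) and 2.10 ± 0.15 in control cells (4.27-fold).

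Promoter windows of RefSeq (GRCm38.p6, 250 bases before to 50 after a start) matched 7 of the 10 genes by symbol, with 8 windows. *Parp9*, *Parp14* and *Parp10* had no window and were not searched, so nothing is known here of their promoters. They were searched on both strands for GAAANNGAAA, a core of the interferon-stimulated response element (ISRE), for TTCNNNGAA, the core of the IFNγ-activated site (GAS), and for the NF-κB consensus. These occur in 3.44%, 8.3% and 4.51% of all 32851 windows. Among the 8 windows searched, only the first *Parp11* window held a match, to both the ISRE and the GAS core. The matches share 3 bases, and none of the 8 windows matched the NF-κB consensus. The 250 bases upstream of *Parp11* are shown because they hold these matches (in capitals), and those of *Parp12* because this gene responded more and its window has none. The *Parp11* stretch is chr6:127446590-127446839 on the plus strand and the *Parp12* stretch is chr6:39118350-39118599 on the minus strand, both written 5′ to 3′ in the direction of the gene.
Parp11: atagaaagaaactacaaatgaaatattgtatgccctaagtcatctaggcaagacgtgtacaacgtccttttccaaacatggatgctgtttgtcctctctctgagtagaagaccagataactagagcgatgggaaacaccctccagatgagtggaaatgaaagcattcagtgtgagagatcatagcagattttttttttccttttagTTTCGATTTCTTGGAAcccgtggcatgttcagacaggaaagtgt
Parp12: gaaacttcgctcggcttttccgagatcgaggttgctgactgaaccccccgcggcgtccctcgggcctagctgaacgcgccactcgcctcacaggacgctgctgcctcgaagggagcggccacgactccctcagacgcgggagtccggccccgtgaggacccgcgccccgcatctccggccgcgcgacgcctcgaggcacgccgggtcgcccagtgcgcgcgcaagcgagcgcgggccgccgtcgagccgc

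In the *Parp11* stretch the ISRE core reads GAAATCGAAA on the opposite strand at -44 to -35 from the start, and the GAS core lies at -37 to -29. The windows also differ in base composition, at 42% G and C for the first *Parp11* window and 73.7% for *Parp12*, with a median of 52.7% over all windows. The second *Parp11* window, which held no match, had 59%. A match is a string of letters and not a measured site, and no match says only that these letters are not in the window.

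*Parp3* and *Parp8* were also called higher, with smaller folds. *Parp3*, which encodes a PARP that acts at DNA double-strand breaks, stood at 374, 458 and 280.2 CPM in stimulated and at 132, 142 and 102 CPM in unstimulated *Adam17*-KD libraries. In control libraries it stood at 275, 322 and 245 CPM with cytokines and at 96.4, 114 and 75.3 CPM without. Its log2 fold change was 1.56 ± 0.20 in *Adam17*-KD cells and 1.56 ± 0.20 in control cells, a 2.95-fold rise in each. *Parp8* stood at 45.5, 64.2 and 56.3 CPM in stimulated and at 31.4, 37.2 and 27.7 CPM in unstimulated *Adam17*-KD libraries. In control libraries it stood at 39.5, 54.3 and 48.7 CPM with cytokines and at 26.0, 24.4 and 26.5 CPM without. *Parp8* had a log2 fold change of 0.79 ± 0.16 in *Adam17*-KD cells (adjusted p = 0.00585) and 0.89 ± 0.16 in control cells (adjusted p = 0.00238), with no overlap in either. The call in *Adam17*-KD cells ended without replicate 3 of unstimulated *Adam17*-KD cells (adjusted p = 0.0506).

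*Parp1* and *Parp2*, the DNA break enzymes, had no called response. *Parp1* stood at 194, 172 and 161 CPM in stimulated and at 214, 189 and 201 CPM in unstimulated *Adam17*-KD libraries. In control libraries it stood at 208, 134 and 207 CPM with cytokines and at 209, 166 and 213 CPM without. The log2 fold change was -0.20 ± 0.16 in *Adam17*-KD cells and -0.10 ± 0.16 in control cells, and the value of control cells was 0.09 without stimulated control replicate 2, the library with 134 CPM. *Parp2* stood between 54.8 and 62.8 CPM in stimulated and between 49.5 and 52.7 CPM in unstimulated *Adam17*-KD libraries, and between 48.0 and 55.3 CPM in stimulated and 35.2 and 52.0 CPM in unstimulated control libraries. Its log2 fold change was 0.18 ± 0.14 in *Adam17*-KD cells and 0.21 ± 0.14 in control cells. Stimulated *Adam17*-KD libraries all lay above the unstimulated ones for *Parp2*, while those of control cells overlapped.

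**Figure D3:**
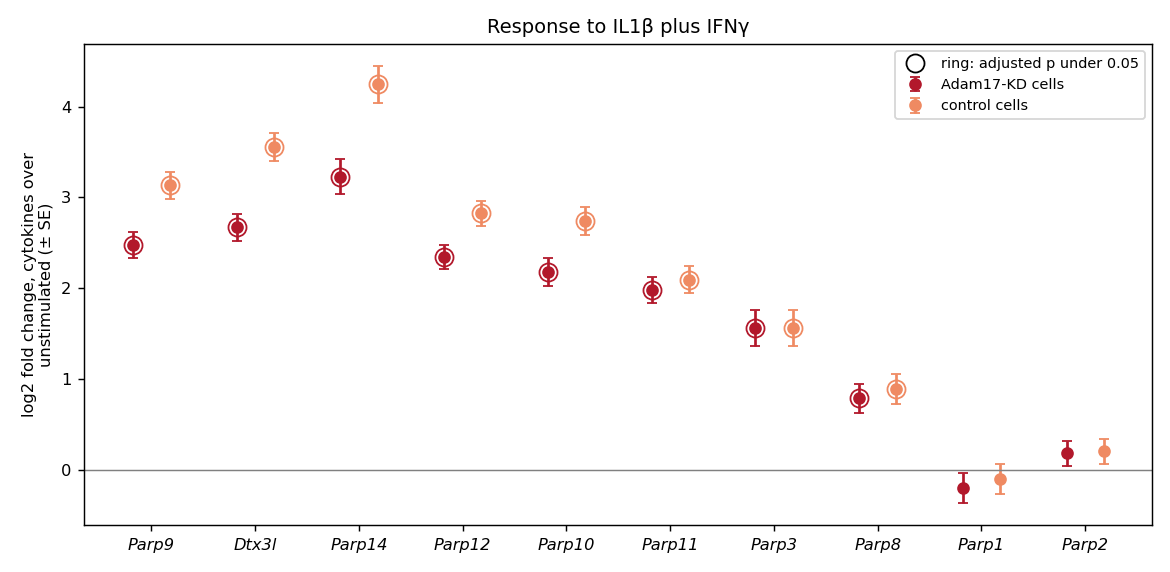
Log2 fold change of stimulated over unstimulated cells (± SE) for each gene, in *Adam17*-KD cells (dark red) and control cells (orange); rings mark an adjusted p under 0.05. The ringed genes run between 0.79 and 4.25, and *Parp1* and *Parp2* lie between -0.20 and 0.21 without a ring.

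Per length the order of the genes differed between conditions. On the scale of CPM per kb of exon, *Parp1* had the highest mean level of the 10 in unstimulated cells, at 38.1 in *Adam17*-KD and 37.1 in control cells, followed by *Parp3* at 33.9 and 25.7. With cytokines *Parp3* (100.2 in *Adam17*-KD and 75.9 in control cells), *Parp10* (90.9 and 85.8) and *Parp12* (90.9 and 74.4) were above *Parp1* (33.1 and 34.5). *Parp14* had a mean level of 39.6 CPM per kb in stimulated *Adam17*-KD and 40.9 in stimulated control cells, against 4.23 and 2.16 without cytokines. *Parp9* was above its partner *Dtx3l* in every group, at 49.7 against 22.2 CPM per kb in stimulated *Adam17*-KD cells and 43.1 against 21.5 in stimulated control cells. Without cytokines *Parp9* stood at 8.93 against 3.49 for *Dtx3l* in *Adam17*-KD cells, and 4.90 against 1.83 in control cells. *Parp8* and *Parp11* stayed low, at no more than 6.23 and 12.8 CPM per kb.

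Without cytokines *Adam17*-KD cells had more RNA of 4 of the 10 genes, *Parp14*, *Dtx3l*, *Parp9* and *Parp12*, and none was called lower. Of all genes tested, 0.429% were called higher in this comparison. The log2 fold change was 0.97 ± 0.18 for *Parp14* (adjusted p = 0.0331), 0.93 ± 0.15 for *Dtx3l* (adjusted p = 0.0136), 0.86 ± 0.14 for *Parp9* (adjusted p = 0.0149) and 0.77 ± 0.13 for *Parp12* (adjusted p = 0.0149). These are 1.96-, 1.90-, 1.82- and 1.71-fold differences, and every *Adam17*-KD library exceeded every control library for each of the genes. *Parp10* (0.65 ± 0.15, adjusted p = 0.0903), *Parp11* (0.50 ± 0.14, adjusted p = 0.233) and *Parp8* (0.32 ± 0.16, adjusted p = 0.691) also had all *Adam17*-KD libraries above all control libraries, without a call. How many of all genes tested separated in this way was not counted, so these separations are only described. *Parp3* (0.40), *Parp2* (0.18) and *Parp1* (0.04) overlapped between the groups. The median of the 10 genes was 0.58, against -0.01 over all genes tested. As the members were chosen with earlier results known, this contrast too is a description and not a test.

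These calls depended on single libraries. When unstimulated replicate 1 or unstimulated replicate 2 of either kind of cells was left out, 0 of the 10 genes were called. Leaving out unstimulated control replicate 3 left 2, and leaving out stimulated *Adam17*-KD replicate 2 left 3, since *Parp14* was lost. Without unstimulated *Adam17*-KD replicate 3, or without stimulated control replicate 2, 5 were called. The gene added was *Parp10* in both fits (0.80, adjusted p = 0.0382, and 0.67, adjusted p = 0.0247). The tool mattered as well. Limma-voom did not call *Parp14* (adjusted p = 0.0689), while DESeq2 (adjusted p = 0.00664) and the fit without a filter (adjusted p = 0.00716) called *Parp10*. The log2 fold changes of the 4 genes stayed between 0.70 and 1.10 throughout. Same-numbered unstimulated libraries deviated together from their group means, and with the replicate number as a block *Parp10* was called as well (0.64 ± 0.11, adjusted p = 0.0224), with 0.756% of all genes called higher. The summed level of 11 markers of fibroblasts and endothelium was also higher in *Adam17*-KD cells, at between 843 and 1152 CPM in unstimulated *Adam17*-KD libraries and between 410 and 604 CPM in unstimulated control libraries. Of these markers 6 were tested and 1, *Col1a2*, was called higher without cytokines. *Col3a1* made up most of the sum (564 to 825 CPM in unstimulated *Adam17*-KD and 222 to 422 CPM in unstimulated control libraries, adjusted p = 0.403), *Col1a1* had a log2 fold change of -0.23, and the endothelial *Pecam1*, *Cdh5*, *Kdr* and *Vwf* were under 1 CPM in every library. With cytokines the sums were between 745 and 975 CPM in *Adam17*-KD and between 261 and 659 CPM in control libraries. The part of these markers in the differences between *Adam17*-KD and control cells was not tested. Fewer cells of a kind and less RNA per cell cannot be told apart in such bulk samples.

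With cytokines none of the 10 genes was called between *Adam17*-KD and control cells, and 0.0341% of all genes were called in either direction. In edgeR 2 of the 10, *Parp11* and *Parp12*, had an unadjusted p under 0.05, as did 676 of all genes, and DESeq2 and limma-voom called 0 of the 10. The log2 fold change was 0.39 ± 0.14 for *Parp11* (adjusted p = 0.790) and 0.29 ± 0.12 for *Parp12* (adjusted p = 1.00), and for both genes every *Adam17*-KD library exceeded every control library. The share of all genes with such a separation was not counted here either. *Parp9* stood at 242 ± 16.4 CPM in *Adam17*-KD and 209.8 ± 23.2 CPM in control cells (SD, n = 3 each), a log2 difference of 0.21 ± 0.14. *Dtx3l* (0.04 ± 0.14), *Parp14* (-0.05 ± 0.18) and *Parp10* (0.08 ± 0.15) had differences smaller than their SE. *Parp3* had the largest estimate of the 10 genes (0.40 ± 0.20). It overlapped between the groups, as did *Parp8* (0.22 ± 0.16), *Parp2* (0.16 ± 0.14) and *Parp1* (-0.06 ± 0.16). Without stimulated control replicate 2, which had the most *Parp14* and *Dtx3l* RNA, *Parp14* was at 0.19 and *Dtx3l* at 0.18, still without a call.

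**Figure D4:**
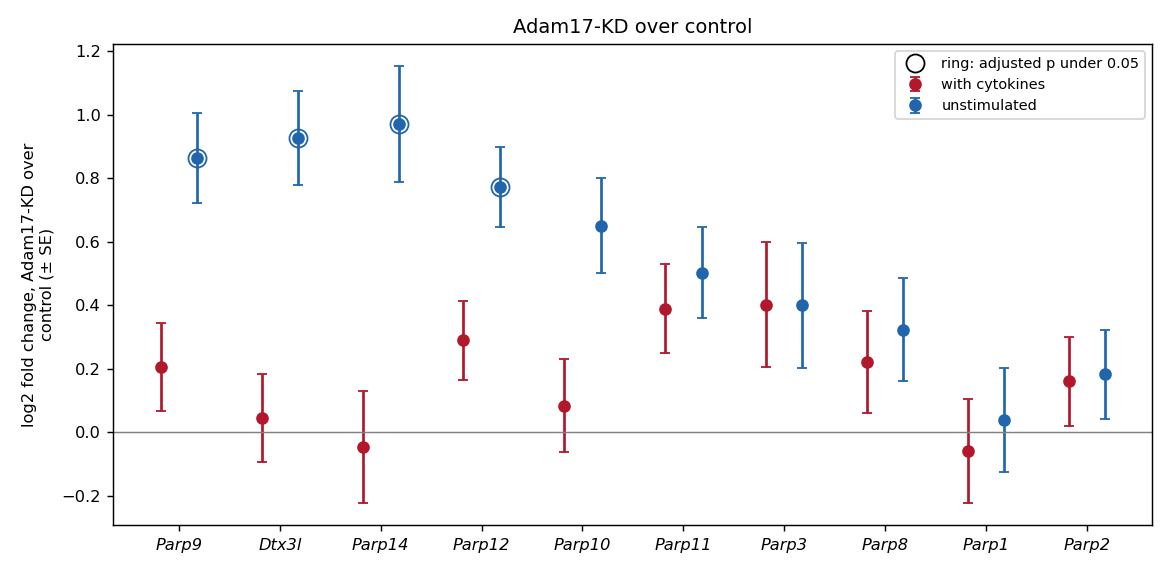
Log2 fold change of *Adam17*-KD over control cells (± SE) for each gene, with cytokines (red) and unstimulated (blue); rings mark an adjusted p under 0.05. *Parp14*, *Dtx3l*, *Parp9* and *Parp12* are ringed without cytokines, between 0.77 and 0.97, and lie between -0.05 and 0.29 with them.

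The difference between the cytokine responses, *Adam17*-KD minus control, was not called for any of the 10 genes, nor for any other gene (0% of 14673 called in edgeR). At an unadjusted p under 0.05 there were 5 of the 10 genes and 222 genes in all, and DESeq2 called 1 gene, none of the 10, and limma-voom 0. The 5 genes were *Parp14* (-1.02 ± 0.25), *Dtx3l* (-0.88 ± 0.20), *Parp9* (-0.66 ± 0.20), *Parp10* (-0.57 ± 0.21) and *Parp12* (-0.48 ± 0.18), each with an adjusted p of 1.00. With no filter on low counts *Parp14* was called (-1.02, adjusted p = 0.00779), among 18 genes in all. Without stimulated control replicate 2 the estimates of the 5 genes were between -0.80 and -0.47, without a call. The estimates of *Parp11* (-0.11), *Parp8* (-0.10), *Parp1* (-0.10), *Parp2* (-0.02) and *Parp3* (0.00) were smaller than their SE. Each of these differences equals the knockdown effect with cytokines minus that without, given above, so it rests on the same libraries.

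Averaged over both conditions, *Adam17*-KD cells had more *Parp12* (0.53 ± 0.09, adjusted p = 0.00961), *Parp9* (0.53 ± 0.10, adjusted p = 0.0184), *Dtx3l* (0.49 ± 0.10, adjusted p = 0.0336) and *Parp11* (0.45 ± 0.10, adjusted p = 0.0487) than control cells, and 1.06% of all genes were called higher. This average shares its libraries with both single comparisons. *Parp12* alone was called whichever of the 12 libraries was left out. *Parp9* was called in 6 of these 12 fits, *Dtx3l* in 2 and *Parp11* in 1. Only 1 gene was called without unstimulated replicate 1 or 2 of either kind of cells, stimulated *Adam17*-KD replicate 2 or stimulated control replicate 1, and 2 genes without unstimulated control replicate 3 or stimulated replicate 3 of either kind of cells. Among these fits *Parp14* (0.46 ± 0.13, adjusted p = 0.118) was called without stimulated control replicate 2 alone (0.59, adjusted p = 0.00739). Without that library *Parp10* was called too (0.44, adjusted p = 0.0393) and *Parp11* was not (adjusted p = 0.0544). *Parp14* was also called with DESeq2 (adjusted p = 0.0351) and without a filter on low counts (adjusted p = 0.00517). With all libraries in edgeR, *Parp3* (0.40 ± 0.14), *Parp10* (0.37 ± 0.10), *Parp8* (0.27 ± 0.11), *Parp2* (0.17 ± 0.10) and *Parp1* (-0.01 ± 0.12) were not called.

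Of 7 other PARP genes tested, 2 were called higher with cytokines in both kinds of cells. These were *Zc3hav1*, which encodes the zinc finger antiviral protein PARP13, and *Parp4*, which encodes the PARP of vault particles. *Zc3hav1* rose by 0.58 ± 0.12 in *Adam17*-KD and 0.73 ± 0.12 in control cells, and *Parp4* by 0.78 ± 0.20 and 1.06 ± 0.20 on the log2 scale. *Tiparp*, a target of the aryl hydrocarbon receptor, fell in control cells (-0.58 ± 0.16, adjusted p = 0.0383) and stood at -0.31 without a call in *Adam17*-KD cells. The difference between these responses was not called. *Parp6*, *Parp16* and the tankyrase genes *Tnks* and *Tnks2* were not called, and none of the 7 was called between *Adam17*-KD and control cells. The median log2 response of the 7 genes was -0.14 in *Adam17*-KD and -0.003 in control cells.

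Of 17 listed genes that remove or read ADP-ribose, 14 were tested and 1 was called with cytokines, *Chd1l*, a chromatin remodeller that binds poly(ADP-ribose) (0.45 ± 0.12 in *Adam17*-KD and 0.54 ± 0.12 in control cells). *Parg*, the gene of the main enzyme that degrades poly(ADP-ribose), had a log2 response of -0.24 in *Adam17*-KD and -0.11 in control cells, without a call. Among 24 genes of NAD supply and use 15 were tested. *Nampt*, which encodes the rate-limiting enzyme of NAD salvage from nicotinamide, rose by 1.31 ± 0.15 in *Adam17*-KD and 1.30 ± 0.15 in control cells. *Nnmt*, whose product methylates nicotinamide, was called in *Adam17*-KD cells (0.67 ± 0.19, adjusted p = 0.0459) and stood at 0.39 in control cells, a difference that was not called. None of 3 tested Deltex ligase genes other than *Dtx3l*, and none of 12 single-strand break repair partners of PARP1 and PARP2, was called in any comparison.

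JAK-STAT signalling carries interferon signals to the nucleus. Of 18 JAK-STAT genes tested, 10 were called higher with cytokines in *Adam17*-KD cells and 10 in control cells. *Irf1*, a transcription factor induced by IFNγ, rose by 4.34 ± 0.18 in *Adam17*-KD and 5.04 ± 0.18 in control cells. *Stat2* rose by 2.33 ± 0.19 in *Adam17*-KD and 3.01 ± 0.19 in control cells, and *Irf9*, its partner in the complex that binds the ISRE, by 0.90 ± 0.11 and 1.31 ± 0.11 in the same cells. The median log2 response of the 18 genes was 0.97 in *Adam17*-KD cells, against 0.001 over all genes tested, and 1.12 in control cells, against -0.03. Without cytokines 1 of the 18, *Usp18*, a negative regulator of type I interferon signalling, was called higher in *Adam17*-KD cells (0.86 ± 0.15, adjusted p = 0.0187), and *Stat2* (0.87), *Irf1* (0.65) and *Irf9* (0.50) were not called. None of 21 interferon genes in the table passed the filter on low counts, and their summed level was at most 1.01 CPM in any library.

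Neighbours were counted around every member. The neighbours were up to 3 protein-coding genes on each side and those that overlap a member. Of the 27 tested around all members, 3 were called higher with cytokines in *Adam17*-KD cells and 2 in control cells. This compares with 6.37% and 5.75% of all genes, and no neighbour was called lower. With so few genes nothing is read from these counts. *Grina*, next to *Parp10*, rose in both (0.67 ± 0.14 in *Adam17*-KD and 0.62 ± 0.14 in control cells). No neighbour was called between *Adam17*-KD and control cells.

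The genes most like *Parp9*, *Dtx3l*, *Parp14*, *Parp12*, *Parp10* and *Parp11* over the 12 libraries were looked up. By Pearson's r of log2 CPM over the 13050 genes that averaged 20 counts or more, *Dtx3l* and *Parp14* were each other's nearest gene (r = 0.998). *Iigp1*, an interferon-inducible GTPase gene, was nearest to *Parp9* (r = 0.998), *Ifit3b* to *Parp12* (r = 0.997), *Irgm2* to *Parp10* (r = 0.997) and *Herc6* to *Parp11* (r = 0.994). The 5 nearest to *Parp14* also held *Ifi47* and *Igtp*, and those to *Dtx3l* and to *Parp10* both held *Gbp6* and *Gbp7*, all 4 of them genes of GTPases. These correlations are descriptions, since the 12 points fall into stimulated and unstimulated libraries and share their depth. Within groups the order was another one. When each library's deviation from its group mean was used instead, none of the 5 nearest genes of any of these 6 members remained among its 5 nearest. *Dtx3l* and *Parp14* still deviated together (r = 0.848), more than *Dtx3l* and *Parp9* did (r = 0.419), a difference that was not tested.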

How the data were processed

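The authors deposited raw counts, that is, reads assigned to each gene in whole numbers and not normalised, and these are the only values used here. They also deposited tables of their own comparisons (mean level, fold change, p-values), which were not used. Per the labels, library preparation followed an Ion Total RNA-Seq protocol and mm10 served as the build. Which aligner, counter, strand setting and annotation were used is not given in the sources used here. Of the lines of the table, 2 with a date for a gene name (0.00808% of counts) and 1 without a name were left out.

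The analysis used edgeR 4.0.16 under R 4.3.3. Filtering by filterByExpr left 14673 genes, TMM factors scaled the totals, and group means were estimated jointly from the 12 libraries in a quasi-likelihood fit, leaving 8 residual degrees of freedom. The 6 comparisons were the knockdown effect with cytokines, without them and on average, the cytokine response in *Adam17*-KD and in control cells, and the difference between the responses. Adjusted p-values are from this fit over all genes unless another tool is named. The fit was also run on simulated counts, for the knockdown effect without cytokines only. These counts were drawn without pairing between libraries, and nothing is concluded here from that run. CPM use the scaled totals, exon lengths come from GENCODE M21, and p-values rest on counting and replicate error together.

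The members and gene lists were chosen with earlier results of these data known. All 10 members were named in every comparison, with up to 4 called genes per list and comparison, by the smallest p, and *Parg*, *Zc3hav1*, *Tiparp*, *Nampt*, *Stat2*, *Irf1* and *Irf9* in any case. Other uncalled genes were named where their list is described, and 1 gene that met the rule is not reported here. Other settings were RLE scaling, DESeq2 1.42.0, limma-voom (limma 3.58.1), no filter, a mean of at least 50 counts, a replicate block, a fit to only the groups compared, and a fit without each library in turn. A shared replicate number was read as pairing where the deviations of its libraries from the group means correlated above 0.1 for all 3 numbers. This held for unstimulated *Adam17*-KD with unstimulated control libraries (r = 0.221 to 0.457) and for stimulated with unstimulated control libraries (r = 0.133 to 0.487).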

Additional observations from a re-analysis of the deposited data

How the results depend on the processing

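The 8 genes called with cytokines were called in both kinds of cells under every setting, except *Parp8* in *Adam17*-KD cells without 1 library. The knockdown calls depended on single libraries. Without cytokines the number of members called ran from 0 to 5 when 1 library was left out, and on average over both conditions from 1 to 5, and limma-voom called 2 members on average, against 6 with DESeq2 and 6 without a filter. Without cytokines limma-voom called 3 members, and DESeq2 and the fit without a filter 5 each. For the difference between responses the fit without a filter called 1 member and 18 genes in all. Differences near 0 changed sign. *Parp1* on average, at -0.01, was 0.0074 with RLE scaling, 0.0073 with DESeq2, 0.0051 with limma-voom and 0.0037 with the replicate block, and -0.10 to 0.040 with 1 library left out. The difference between responses of *Parp3* was -0.031 with RLE scaling, -0.031 with DESeq2, -0.028 with limma-voom, -0.000195 without a filter and -0.026 with the replicate block, and -0.20 to 0.17 with 1 library left out. Leaving out 1 library also gave, without cytokines, -0.052 to 0.11 for *Parp1*. With cytokines it gave -0.051 to 0.18 for *Dtx3l*, -0.18 to 0.19 for *Parp14*, -0.025 to 0.20 for *Parp10* and -0.25 to 0.042 for *Parp1*. The response of *Parp1* in control cells ran from -0.20 to 0.089, and the difference between responses from -0.25 to 0.021 for *Parp8*, -0.31 to 0.0040 for *Parp1* and -0.13 to 0.086 for *Parp2*. The cause of these changes was not tested.

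Over all genes, 69 were called without cytokines, against 230 with DESeq2, 223 without a filter, 130 with the replicate block and 11 to 141 with 1 library left out. With cytokines 5 were called, against 74, 98 and 11 under the first 3 of these settings, and on average 182, against 443, 406 and 302. Stimulated *Adam17*-KD and control libraries shared only replicate numbers (r = -0.249 to 0.448), as did stimulated and unstimulated *Adam17*-KD libraries (r = -0.171 to 0.301). With the replicate block 6 members were called on average, adding *Parp10* (adjusted p = 0.0365) and *Parp3* (adjusted p = 0.0129), and beside *Parp10* without cytokines it changed no other call of a member.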
